A study of Mus musculus with 8 samples.

Results

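The 9 genes described here control the tone of blood vessels and the making and breaking of blood clots: *Vwf*, *F3*, *Procr*, *Plat*, *Edn1*, *Ednrb*, *Ece1*, *Ace* and *Agt*. They were taken by gene symbol from the 54532 genes of a read count table, and all 9 passed the minimum of a mean of 10 counts over the 8 libraries. RNAseq was performed on FACS-sorted mG+ cells of female mice aged 8 months, with the mG (membrane GFP) signal switched on by Cre. All groups carried *Tie2e-cre* and the *mTmG* reporter, the WT groups with TERT+/+ and the KO groups (EC-*Tert*-KO) with TERTfl/fl, so that *Tert* was deleted where the *Tie2e* promoter, used as endothelial-specific by the study, had driven Cre. Cells came from subcutaneous adipose tissue (SAT) on high-fat diet (HFD), SAT on chow, visceral adipose tissue (VAT) on chow and gastrocnemius muscle on chow, with 1 WT and 1 KO library in each of these 4 pairs. The number of animals behind a library was not given in the sources used here.

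Vessel tone and haemostasis are both set at the vessel wall. Endothelin-1, made from *Edn1* and cut to its active form by the enzyme of *Ece1*, narrows vessels through receptor A on smooth muscle, whereas receptor B (*Ednrb*) on endothelium releases dilators and clears the peptide. Angiotensinogen (*Agt*) is the precursor from which renin and then angiotensin-converting enzyme (*Ace*) make the constrictor angiotensin II. Von Willebrand factor (*Vwf*) tethers platelets, tissue factor (*F3*) starts coagulation, the endothelial protein C receptor (*Procr*) restrains it, and tissue plasminogen activator (*Plat*) starts the dissolving of clots.

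Total counts ranged from 6214269 to 18855772 per library, and 3 counts corresponded to between 0.181 and 0.451 CPM (counts relative to the library total after TMM scaling). *Tert* was counted 114 times in the WT and 0 times in the KO library of SAT on HFD, 70 and 11 times in SAT on chow, and 24 and 7 times in muscle. In VAT it was counted 3 times in the library labelled WT and 9 times in the library labelled KO, 0.336 and 0.663 CPM. These counts did not bear out the labels and were too few to settle a direction, so directions in VAT refer to the labels alone. The SAT chow WT library stood apart in the nuclear RNA *Malat1*, at 292 CPM against 2150 to 5840 CPM in the other 7 libraries, so tissue and diet differences of the 9 genes that rest on it are also given without it. Summed over 19 endothelial markers, none of them among the 9 genes, levels ran from 487 CPM in SAT of KO mice on HFD to 3700 CPM in muscle of KO mice. Markers of other cells were present in every library, with 1340 to 4550 CPM over 14 stromal genes and 418 to 14700 CPM over 10 macrophage genes. Sums over 10 neutrophil genes ran from 69.7 to 23600 CPM and were highest in muscle. Those over 10 T cell genes (258 to 4480 CPM) and 8 B cell genes (185 to 2510 CPM) were highest in SAT. All 10 T cell markers were lower in both VAT and both muscle libraries than in both SAT chow libraries. In such bulk samples, fewer cells of a type and less RNA per cell cannot be told apart.

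Per kilobase of exon, the highest level of any of the 9 genes was that of *Ednrb* in VAT, at 123 CPM per kb in the library labelled WT and 125 in the library labelled KO. *Ace* reached 62.6 CPM per kb, *Ece1* 48.3 and *Vwf* 26.8, each in the VAT library labelled WT. *Procr* reached 20.7 CPM per kb in the VAT library labelled KO and *Edn1* 13.7 in the muscle KO library. *Plat* and *F3* stayed at or below 8.5 and 8.13 CPM per kb, both highest in the SAT chow KO library, and *Agt* at or below 3.31. Apart from *Agt*, with few counts, the genes fell into 3 patterns by level. *Vwf*, *Ace*, *Ece1* and *Edn1* were higher in both VAT and both muscle libraries than in any SAT library, and *Ednrb* stood out in VAT alone. *Procr*, *Plat* and *F3* overlapped between SAT and each of the other tissues. Between VAT and muscle only *F3* of these overlapped, with *Procr* and *Plat* higher in both VAT libraries than in both muscle libraries.

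**Figure D1:**
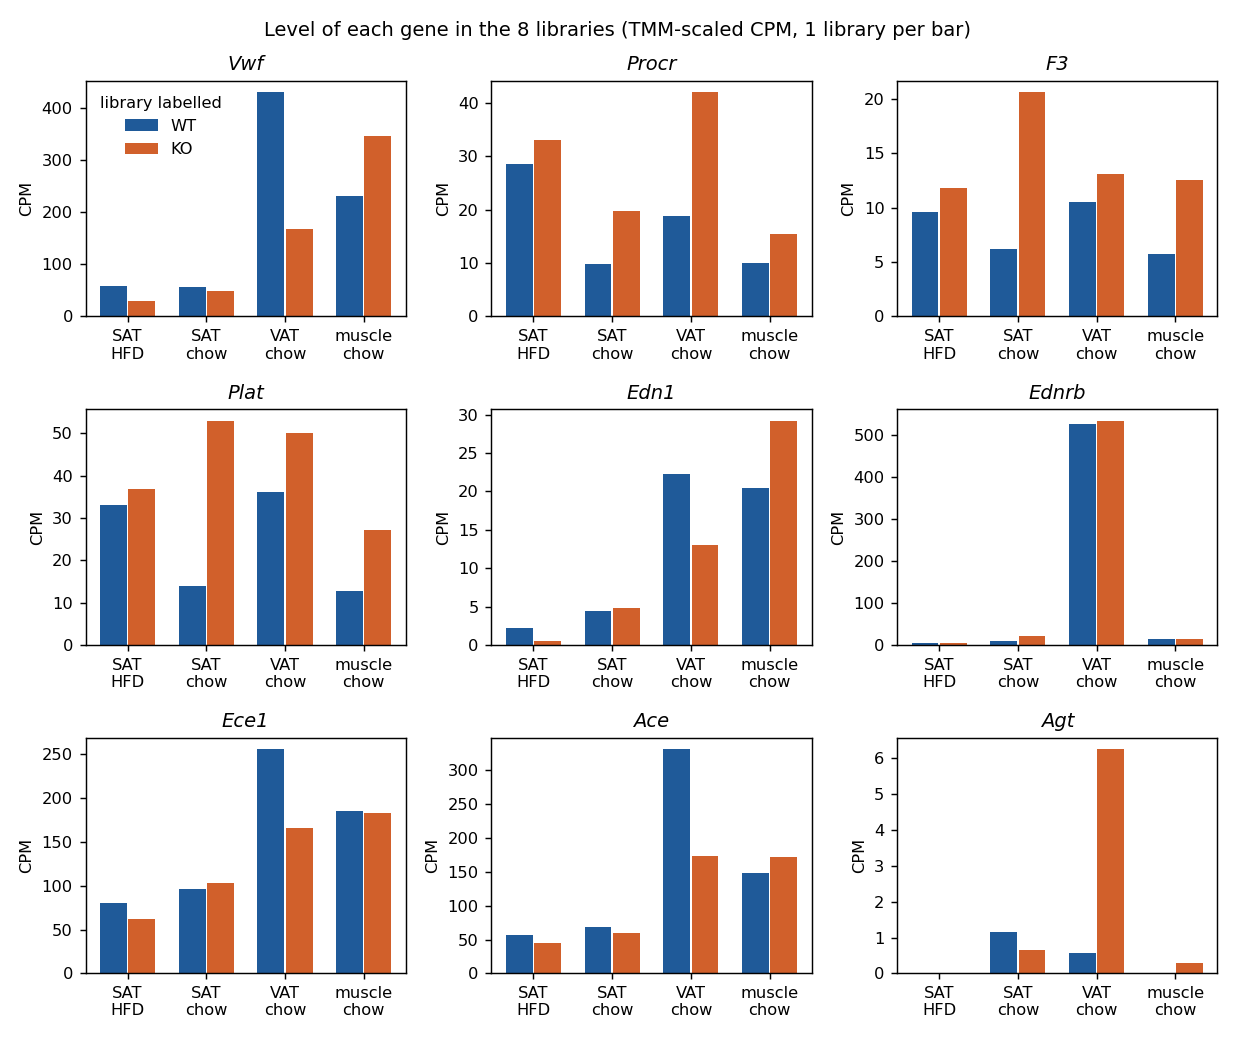
Levels of the 9 genes in the 8 libraries as TMM-scaled CPM (y axis, linear, from 0) for each tissue and diet (x axis), with blue bars for libraries labelled WT and orange bars for libraries labelled KO, 1 library per bar and hence no error bars. *Ednrb* reached 526 and 533 CPM in VAT against at most 20.7 CPM elsewhere, and *Procr*, *F3* and *Plat* were higher in the bar labelled KO of every pair.

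The first question was how the 9 genes differed between tissues and diets. Each tissue or diet had 2 libraries, WT and KO, and the contrasts were fitted in edgeR with a genotype term, with Benjamini-Hochberg adjustment over 16971 genes. Because the libraries of a contrast differ in genotype as well as in the mice they came from, the p-values measure the spread between these 8 libraries only.

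Endothelin receptor B separated VAT from the other tissues. *Ednrb* (chr14:103814625-103844402, minus strand, GRCm38) was measured at 526 CPM (4699 counts) in the VAT library labelled WT and 533 CPM (7240 counts) in the one labelled KO. In SAT on chow it was at 8.22 CPM in WT and 20.7 CPM in KO, in SAT on HFD at 5.12 and 5.22 CPM, and in muscle at 14.9 and 15.3 CPM. The VAT libraries did not overlap with any other. *Ednrb* was 38.6-fold higher in VAT than in SAT on chow (log2 difference 5.27 ± 0.461 SE, edgeR adjusted p = 0.00436) and 35.1-fold lower in muscle than in VAT (log2 difference -5.13 ± 0.456 SE, adjusted p = 0.00498). Both calls were kept when any 1 of the 8 libraries was left out, with adjusted p of at most 0.0307 and 0.0346. Muscle and SAT on chow were next to each other in the order of levels. They did not differ beyond their spread (log2 difference 0.14, 95% interval -0.78 to 1.05, edgeR adjusted p = 0.963). Without the SAT chow WT library this difference was -0.37. Markers of several other lists moved the same way in full or in part. All 10 macrophage markers were higher in both VAT libraries than in both SAT chow libraries, summing to 14700 and 14500 CPM against 2100 and 857 CPM, and all 10 were lower in muscle than in VAT. All 10 adipocyte markers were also higher in VAT, with sums of 661 and 1010 CPM against 252 and 283 CPM. In muscle 9 were lower than in VAT, although *Adipoq* reached only 2.24 CPM. Of 8 mast cell markers, 6 were higher in VAT than in SAT on chow, while in muscle against VAT 5 were lower and 3 higher. Of the 7 lymphatic endothelial markers, 3 were higher in VAT than in SAT on chow, with sums of 577 and 491 CPM against 30.2 and 60.3 CPM. In muscle 1 of the 7 was lower than in VAT. However, *Lyve1* alone held 404 and 455 CPM of the VAT sums. *Prox1*, which defines lymphatic endothelium, was at 14.7 and 3.68 CPM in VAT and 0.544 and 8.2 CPM in SAT. The part of these cells in the *Ednrb* level was not tested. Per 1000 CPM of endothelial markers, *Ednrb* was still at 160 and 199 in VAT against 11.1 and 20 in SAT on chow.

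Von Willebrand factor, the platelet tether stored in endothelial granules, and angiotensin-converting enzyme, which sits on the endothelial surface, were higher in VAT, as were the endothelial markers. *Vwf* (chr6:125546774-125686679, plus strand) was at 56.4 CPM in WT and 48.1 CPM in KO in SAT on chow, at 431 CPM and 169 CPM in the VAT libraries labelled WT and KO, and at 232 CPM in WT and 347 CPM in KO in muscle. *Ace* (chr11:105967945-105989964, plus strand) was at 68.3 and 59.1 CPM, 331 and 174 CPM, and 148 and 172 CPM in the same order. Neither gene overlapped between SAT on chow and the other tissues. *Vwf* was 5.39-fold higher in VAT than in SAT (log2 difference 2.43 ± 0.485 SE, edgeR adjusted p = 0.0318), and *Ace* was 3.86-fold higher (1.95 ± 0.348 SE, adjusted p = 0.022). Both calls rested on single libraries: without the SAT chow WT library the adjusted p were 0.108 for *Vwf* and 0.0501 for *Ace*, without the VAT library labelled WT 0.239 and 0.225, and without the VAT library labelled KO 0.0639 and 0.0636. All 19 endothelial markers were likewise higher in both VAT than in both SAT chow libraries, with sums of 3290 and 2680 CPM against 744 and 1030 CPM. Per 1000 CPM of these markers, *Vwf* was at 131 and 63.1 in VAT and 75.8 and 46.6 in SAT on chow, and *Ace* at 101 and 64.8 against 91.8 and 57.3, so that on this scale both genes overlapped between the tissues.

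The endothelin ligand and its processing enzyme had lower levels in SAT than in the other tissues but missed the threshold. *Edn1* (chr13:42301476-42307990, plus strand) was at 2.26 and 0.554 CPM in WT and KO SAT on HFD, from only 15 and 7 counts, and at 4.41 and 4.76 CPM in SAT on chow. It was at 22.3 and 13 CPM in the VAT libraries labelled WT and KO and at 20.4 and 29.2 CPM in muscle. *Ece1* (chr4:137862237-137965229, plus strand) was at 80.4 and 61.7 CPM, 95.8 and 103 CPM, 256 and 166 CPM, and 185 and 183 CPM, with tissues and diets in the same order. For both genes every VAT and muscle library lay above every SAT library. The difference of VAT from SAT on chow was 1.88 for *Edn1* (log2, 95% interval 0.32 to 3.44, edgeR adjusted p = 0.169) and 1.06 for *Ece1* (0.35 to 1.77, adjusted p = 0.101), and both were called by DESeq2 (adjusted p = 0.0442 and 0.00966). DESeq2 called 8.8% of all genes higher and 4.64% lower in that contrast. With a library left out, the edgeR adjusted p ran from 0.083 to 0.713 for *Edn1* (0.388 without the SAT chow WT library) and from 0.0227, without the SAT chow KO library, to 0.693, without the VAT library labelled WT, for *Ece1* (0.146 without the SAT chow WT library). Relative to 1000 CPM of endothelial markers, the *Edn1* level was 5.93 and 4.62 for WT and KO of SAT on chow, compared with 6.77 and 4.86 for VAT and 6.65 and 7.88 for muscle. *Ece1* on that scale turned in direction, at 129 and 99.9 in SAT on chow against 77.8 and 61.9 in VAT and 60.2 and 49.3 in muscle.

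In all, 3 of the 9 genes were called higher in VAT than in SAT on chow, against 3.31% of all genes tested, and 0 lower, against 1.74%. The median log2 difference was 1.06 over the 9 genes and -0.08 over all genes. Between muscle and SAT on chow, edgeR called 0 of the 9 genes (background 1.11% higher and 0.147% lower), 4 had an unadjusted p under 0.05, as had 11.5% of all genes, and DESeq2 called 3, all higher (background 4.63% higher and 1.57% lower). *Vwf* came nearest, 5.8-fold higher in muscle (log2 difference 2.54 ± 0.485 SE, adjusted p = 0.056), and it passed without the SAT chow KO library (adjusted p = 0.049) but not without the SAT chow WT library (0.134). The other 3 were *Ace* (1.35, adjusted p = 0.128), *Edn1* (2.46, adjusted p = 0.163) and *Ece1* (0.88, adjusted p = 0.284), which without the SAT chow WT library had 1.35, 2.23 and 0.74 (adjusted p = 0.174, 0.296 and 0.298). Between muscle and VAT, *Ednrb* was the 1 gene of the 9 called lower (background 1.05%), and 0 were called higher (background 0.884%).

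The genes of coagulation control and clot dissolution, other than *Vwf*, showed no called difference between tissues. *Procr* (chr2:155751117-155755471, plus strand) had WT and KO levels of 9.79 and 19.8 CPM in SAT on chow, 18.8 and 42 CPM in VAT, and 9.94 and 15.4 CPM in muscle. The edgeR adjusted p for *Procr* was 0.211 in VAT against SAT and 0.238 in muscle against VAT. *Plat* (chr8:22757727-22782844, plus strand) had means over WT and KO of 33.5 ± 27.6 CPM in SAT on chow, 43.1 ± 9.98 CPM in VAT and 19.9 ± 10.3 CPM in muscle (SD, n = 2). Its log2 difference between muscle and VAT was -1.21 (95% interval -2.28 to -0.13, edgeR adjusted p = 0.312). *F3* (chr3:121723537-121735048, plus strand) had means of 13.4 ± 10.2 CPM, 11.8 ± 1.83 CPM and 9.12 ± 4.84 CPM (SD, n = 2). For *F3* the log2 difference between VAT and SAT was 0.02 with a 95% interval of -1.32 to 1.35, and its sign turned under other settings. Differences in either direction of more than 2-fold could thus not be told from none. Without the SAT chow WT library, VAT against SAT had log2 differences of 0.92 for *Procr*, 0.03 for *Plat* and -0.45 for *F3* (with it 1.02, 0.57 and 0.02). Muscle against SAT then had -0.28, -1.13 and -0.9 (with it -0.18, -0.64 and -0.47).

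**Figure D2:**
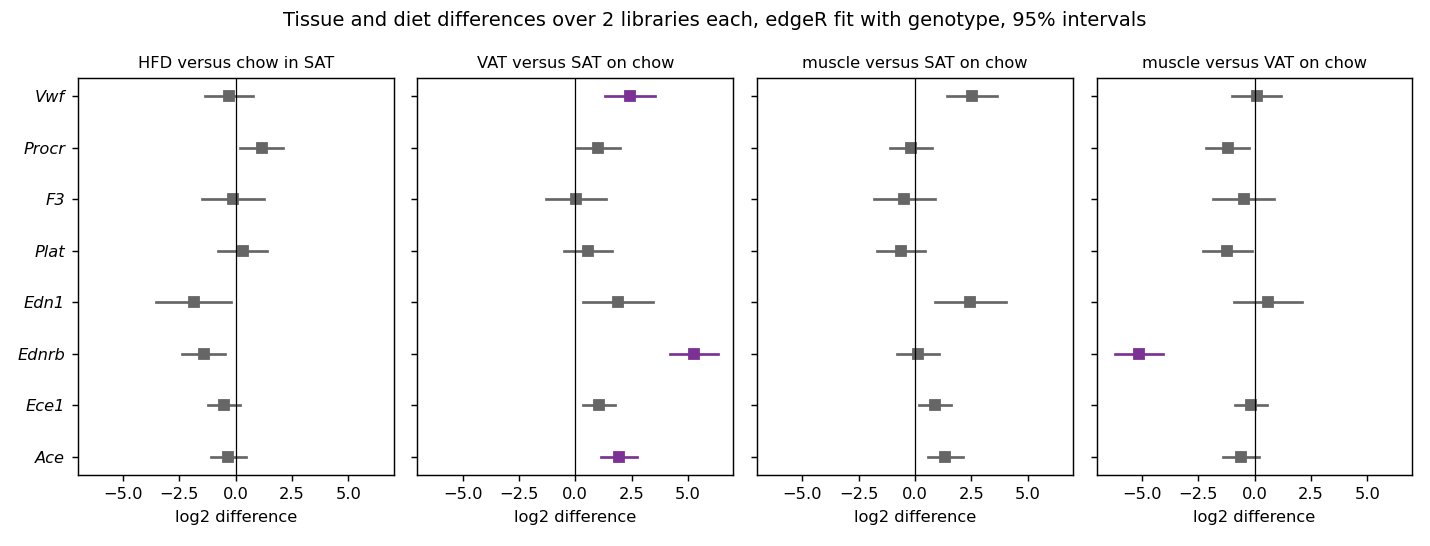
Log2 differences between tissues and diets (x axis) for 8 of the 9 genes (y axis) from the edgeR fit with a genotype term, each over 2 libraries against 2, with 95% intervals as lines and calls at an adjusted p under 0.05 in purple. *Agt* is left out because both of its SAT HFD libraries had 0 counts. *Ednrb* lies farthest from 0, at 5.27 in VAT versus SAT and -5.13 in muscle versus VAT.

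HFD was compared with chow in SAT, the tissue that had both diets. EdgeR called 0 of the 9 genes (background 0% higher and 0% lower, as no gene of the 16971 passed), DESeq2 also called 0 (background 0.13% higher and 1.32% lower), and 3 genes had an unadjusted p under 0.05, as had 7.98% of all genes. *Ednrb* was 2.68-fold lower on HFD (log2 difference -1.42 ± 0.417 SE, adjusted p = 0.539), with both HFD libraries below both chow libraries. *Edn1* was also lower (-1.87 ± 0.725 SE, adjusted p = 0.599) and did not overlap, at 15 and 7 counts on HFD against 73 and 79 on chow. *Procr* was higher on HFD (1.15 ± 0.41 SE, adjusted p = 0.588), at 28.6 and 33 CPM against 9.79 and 19.8 CPM. Without the SAT chow WT library the differences were -1.91 for *Ednrb* (adjusted p = 0.16), -2.16 for *Edn1* (0.562) and 1.05 for *Procr* (0.569), and without the SAT chow KO library -0.68, -1.52 and 1.34. Over all 8 libraries left out in turn, *Edn1* ranged from -2.9 to -1.07. Of the 19 endothelial markers, 15 were lower in both HFD than in both chow libraries, with sums of 496 and 487 CPM on HFD, and 0 were higher in both. All 10 macrophage markers (724 and 418 CPM against 2100 and 857 CPM) and 9 of 10 epithelial markers were likewise lower in both HFD libraries, and the part of these cells was not tested. *Vwf*, *Ace* and *Ece1* had log2 differences of -0.28, -0.32 and -0.5, while the median over all genes was -0.24. *Agt* (chr8:124556534-124569706, minus strand) had 0 counts in both HFD libraries, which allows up to 0.451 CPM in WT and 0.237 CPM in KO, and 19 and 11 counts in WT and KO on chow. Against 3 counts over both HFD libraries, with the 30 chow counts taken as exact, *Agt* was at least 5.82-fold lower on HFD. This bound covers counting error on the HFD side only, not that of the chow counts or the spread between libraries. In the edgeR fit the log2 difference of *Agt* was -7.68 (interval -15.38 to 0.02, adjusted p = 0.627), so no difference was not excluded. Without the SAT chow WT library it was -5.4.

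The second question was what *Tert* KO did to the 9 genes. Over the 4 pairs, with tissue and diet as a block, edgeR called 0 of them (background 0.00589%, 1 of 16971 genes) and DESeq2 called 0 (background 0.0707% higher and 0.0412% lower), while 2 of the 9 had an unadjusted p under 0.05, as had 1.64% of all genes. The genes were therefore also compared within each pair. With 1 library a side there is no replicate check, so each ratio has a 95% exact binomial interval that covers counting error only, and a gene counts as beyond 2-fold where its whole interval does.

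The clot dissolver *Plat*, the coagulation starter *F3* and the coagulation brake *Procr* were higher in the library labelled KO in all 4 pairs. With the labels of VAT turned, which the few *Tert* counts did not bear out, this held in 3 of 4. *Plat* was counted 219 times in WT and 465 times in KO in SAT on HFD, 231 and 880 times in SAT on chow, 322 and 681 times in VAT, and 209 and 375 times in muscle. In CPM these were 33 and 36.8, 14 and 53, 36.1 and 50.2, and 12.7 and 27.2, which gave log2 ratios of 0.16, 1.92, 0.48 and 1.1. Only the SAT chow ratio lay wholly beyond 2-fold (interval 1.71 to 2.14), and over the 4 pairs the log2 difference was 0.91 ± 0.334 SE (unadjusted p = 0.0262, edgeR adjusted p = 1). *F3* went from 9.63 to 11.8 CPM, 6.17 to 20.6 CPM, 10.5 to 13.1 CPM and 5.7 to 12.5 CPM in the same order. Its SAT chow ratio was beyond 2-fold (log2 1.73, interval 1.41 to 2.07), its muscle ratio was above 0 (1.13, interval 0.77 to 1.52), and the intervals in SAT on HFD and in VAT included 0. Over the 4 pairs *F3* had a log2 difference of 0.87 ± 0.421 SE (unadjusted p = 0.0728, adjusted p = 1). *Procr* went from 28.6 to 33 CPM, 9.79 to 19.8 CPM, 18.8 to 42 CPM and 9.94 to 15.4 CPM, with log2 ratios of 0.21, 1.02, 1.16 and 0.63 and intervals above 0 in the last 3. Its difference over the pairs was 0.75 ± 0.289 SE (unadjusted p = 0.031, adjusted p = 1). When each pair was left out in turn, the difference ranged from 0.58 to 1.16 for *Plat*, from 0.59 to 1.07 for *F3* and from 0.63 to 0.94 for *Procr*, with no adjusted p below 0.998. Without the VAT pair the values were 1.08, 1.07 and 0.63.

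Stromal markers moved with these 3 genes. Of the 14 stromal genes, 13 had intervals above 0 for KO over WT in SAT on chow, 11 in VAT and 12 in muscle, but 2 in SAT on HFD, where 9 were below 0, and the log2 ratios of their summed levels were 1.76, 0.91, 0.85 and -0.21. Scaled to the stromal sum, *F3* had log2 ratios of -0.03 in SAT on chow, -0.59 in VAT, 0.29 in muscle and 0.5 in SAT on HFD. *Plat* had 0.16, -0.44, 0.25 and 0.37, and *Procr* -0.74, 0.25, -0.22 and 0.42. On that scale none of the 3 genes was higher in KO by 2-fold in any pair, and each was lower in KO in at least 1. The part of stromal cells in the levels of these genes was not tested. Scaled to the endothelial sum, all 3 genes stayed above 0 in all 4 pairs, from 0.19 for *Plat* in SAT on HFD to 1.45 for *Plat* in SAT on chow and for *Procr* in VAT.

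The promoters of *F3* and *Procr* are shown because these genes were higher in the library labelled KO of each pair (3 of 4 with the VAT labels turned), that of *Ednrb* because the gene separated VAT from the other tissues, and that of *Edn1* as its ligand. RefSeq windows of 250 bases before the start site (GRCm38.p6) were matched for 7 of the 9 genes, all but *Vwf* and *Plat*. For *Ednrb* and *Procr* the RefSeq start site lies inside the gene coordinates given above, so the *Ednrb* window lies wholly and the *Procr* window partly within them. Capitals mark the motif matches found on either strand, which in these 4 windows were of AP-1 (TGANTCA) and of the Krüppel-like factor box (KLF, CACCC, read GGGTG on the other strand).
F3, chr3:121723287-121723536, plus strand: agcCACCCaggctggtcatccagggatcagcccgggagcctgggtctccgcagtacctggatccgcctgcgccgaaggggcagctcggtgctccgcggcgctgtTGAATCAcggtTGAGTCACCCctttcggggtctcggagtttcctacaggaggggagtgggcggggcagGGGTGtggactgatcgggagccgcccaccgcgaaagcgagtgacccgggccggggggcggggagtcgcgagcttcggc
Procr, chr2:155750967-155751216, plus strand: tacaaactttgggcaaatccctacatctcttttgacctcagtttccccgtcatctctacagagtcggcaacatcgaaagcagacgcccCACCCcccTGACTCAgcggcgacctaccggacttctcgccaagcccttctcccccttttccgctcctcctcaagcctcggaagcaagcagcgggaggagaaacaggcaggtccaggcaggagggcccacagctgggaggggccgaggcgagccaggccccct
Edn1, chr13:42301226-42301475, plus strand: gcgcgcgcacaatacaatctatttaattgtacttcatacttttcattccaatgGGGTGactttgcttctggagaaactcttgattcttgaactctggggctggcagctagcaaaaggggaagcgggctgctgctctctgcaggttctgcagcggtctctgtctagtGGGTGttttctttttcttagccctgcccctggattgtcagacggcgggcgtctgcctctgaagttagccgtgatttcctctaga
Ednrb, chr14:103843702-103843951, minus strand, read 5′ to 3′ on that strand: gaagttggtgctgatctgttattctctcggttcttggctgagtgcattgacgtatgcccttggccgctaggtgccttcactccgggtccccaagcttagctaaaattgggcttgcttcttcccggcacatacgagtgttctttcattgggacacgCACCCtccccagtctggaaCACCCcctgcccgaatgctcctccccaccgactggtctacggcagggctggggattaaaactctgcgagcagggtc
*F3* held AP-1 letters at 146 to 140 and at 135 to 129 bases before the start, the latter sharing 2 letters with a CACCC box, and *Procr* held them at 154 to 148 bases. AP-1 letters were present in 6.75% of 32851 such windows and, among the 7 genes matched, in those of *F3* and *Procr* alone. CACCC letters were present in 52% of all windows and in at least 1 window of each of the 7 genes. The hypoxia-inducible factor letters ACGTG, present in 16.6% of windows, were found in 1 window of *Ece1*, and the GATA letters AGATAA, in 9.99% of windows, in none of the 7 genes. These are matches of letters and do not show binding.

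Von Willebrand factor went the other way in adipose tissue by the labels. If the labels of VAT, which the few *Tert* counts did not bear out, were turned, *Vwf* and *Ace* would be lower in KO in SAT alone. *Vwf* was lower in the KO library in SAT on HFD, at 30.6 CPM against 59.1 CPM (log2 ratio -0.95, interval -1.16 to -0.75), and in SAT on chow, at 48.1 against 56.4 CPM (-0.23, interval -0.37 to -0.09). In VAT it was at 169 CPM in the library labelled KO and 431 CPM in the library labelled WT (-1.35, interval -1.42 to -1.27), the 1 gene of the 9 beyond 2-fold lower in any pair. In muscle the KO library was higher, at 347 against 232 CPM (0.58, interval 0.52 to 0.64). The pairs therefore did not share a direction, and over all 4 the log2 difference was -0.49 ± 0.335 SE (edgeR adjusted p = 1), and -0.18 without the VAT pair. *Ace* had the same order of pairs, with log2 ratios of -0.34 in SAT on HFD, -0.21 in SAT on chow, -0.93 in VAT (interval -1.01 to -0.85) and 0.21 in muscle (interval 0.13 to 0.3). The 19 endothelial markers moved alike in part. Their sum had log2 ratios of -0.03, 0.47, -0.29 and 0.27, with 13 markers below 0 in VAT and 17 above 0 in muscle. Scaled to that sum, *Vwf* had log2 ratios of -0.92, -0.7, -1.05 and 0.31 and *Ace* of -0.31, -0.68, -0.63 and -0.06, so the muscle ratio of *Ace* changed sign.

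In the endothelin system, the ligand and the receptors did not move together. *Edn1* was lower in the KO library of SAT on HFD, from 15 to 7 counts (log2 ratio -1.93, interval -3.56 to -0.64), and lower in the VAT library labelled KO (-0.77, interval -1.07 to -0.47). It was higher in KO in muscle (0.52, interval 0.3 to 0.73), and its SAT chow ratio of 0.11 had an interval that included 0. *Ednrb* was beyond 2-fold higher in the KO library of SAT on chow, at 20.7 against 8.22 CPM (1.33, interval 1.04 to 1.63), just past the 2-fold limit. In the other 3 pairs its ratio was 0.03, 0.02 and 0.04, and in VAT, from 4699 and 7240 counts, the interval was -0.03 to 0.07. Its SAT chow ratio was -0.43 when scaled to stromal markers and 0.86 when scaled to endothelial markers. *Ece1* had log2 ratios of -0.38 in SAT on HFD, 0.1 in SAT on chow, -0.62 in VAT and -0.02 in muscle. The other receptor, *Ednra*, which mediates constriction in smooth muscle and is not among the 9, was counted 11 times in WT and 103 times in KO in SAT on HFD (log2 ratio 2.27). In SAT on chow it was counted 6 and 125 times (4.27) and in VAT 33 and 174 times (1.78), each beyond 2-fold, and in muscle 72 and 88 times (0.54). *Ednra* was thus higher in the library labelled KO in 4 of 4 pairs, or in 3 of 4 with the VAT labels turned. Over the pairs its log2 difference was 2.16 ± 0.776 SE (unadjusted p = 0.024, edgeR adjusted p = 1), 2.35 without the VAT pair and 1.53 without the SAT chow pair. Markers of mural cells, the smooth muscle cells and pericytes of the vessel wall, were higher in the library labelled KO for 10 of 12 in SAT on chow, 11 in VAT, 9 in muscle and 6 in SAT on HFD, with sums of 77.3 and 238 CPM, 216 and 785 CPM, 200 and 389 CPM, and 171 and 157 CPM in WT and KO. Their part in the *Ednra* level was not tested.

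The study named *Agt* from these libraries for EC dysfunction, as upregulated in *Tert*-KO EC, so that its direction here is not independent evidence. *Agt* rested on few counts. It was counted 5 times in the VAT library labelled WT and 85 times in the one labelled KO, 0.56 and 6.26 CPM, a 10.4-fold ratio (log2 3.38, interval 2.2 to 5.14) beyond 2-fold. In SAT on chow the counts were 19 and 11 (-0.77, interval -2.01 to 0.35), in SAT on HFD 0 and 0, and in muscle 0 and 4, the last 2 pairs under the count minimum for a ratio. The higher level was thus seen in 1 pair, the one in which the few *Tert* counts did not bear out the labels.

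**Figure D3:**
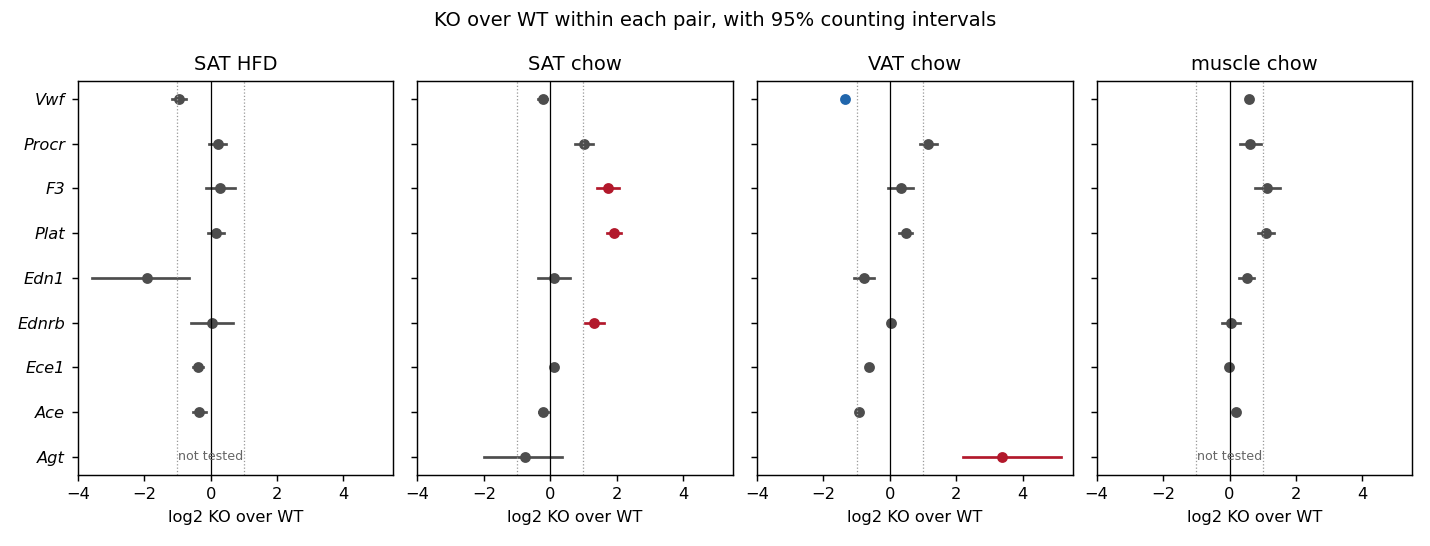
Log2 ratio of KO over WT (x axis) for the 9 genes (y axis) within each of the 4 pairs, 1 library a side, with 95% counting intervals as lines (hidden by the point where narrow) and dotted lines at 2-fold. Red points lie wholly beyond 2-fold higher (*F3*, *Plat* and *Ednrb* in SAT on chow, *Agt* in VAT) and the blue point wholly beyond 2-fold lower (*Vwf* in VAT).

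Counted by pair, 0 of 8 genes tested were beyond 2-fold in SAT on HFD, where 12.7% of all genes were beyond it higher and 11.1% lower. For SAT on chow, 3 of 9 were higher (background 19%) and 0 lower (background 11.7%). In VAT 1 of 9 was higher (background 2.4%) and 1 lower (background 2.09%), and in muscle 0 of 8 were higher (background 2.75%) or lower (background 2.05%). The 3 genes of the SAT chow pair rest on the WT library that stood apart in *Malat1*, and this pair had the largest share of all genes beyond 2-fold higher in KO. Over the 3 pairs other than SAT on chow, the log2 differences were 0.58 for *Plat*, 0.59 for *F3*, 0.67 for *Procr* and 0.03 for *Ednrb* (edgeR adjusted p = 0.998 for each). The median log2 ratios of the genes tested, 8, 9, 9 and 8 of the 9, were -0.16, 0.11, 0.02 and 0.55 for the pairs in that order, beside 0.04, 0, 0.01 and -0.01 over all genes tested. Muscle was the pair with most of the 9 genes above 0, with 6 intervals above and 0 below, compared with 26.7% of all genes above and 29.4% below.

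**Figure D4:**
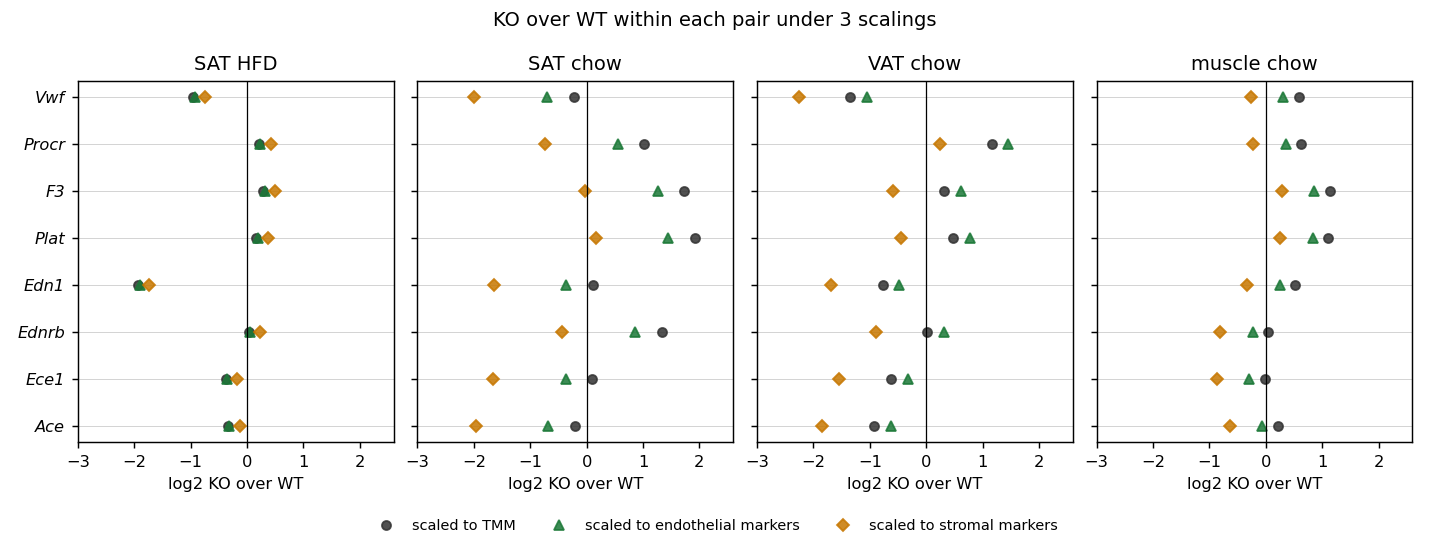
Log2 ratio of KO over WT (x axis) within each pair for 8 of the 9 genes (y axis), scaled by TMM (circles), to the sum of 19 endothelial markers (triangles) or to the sum of 14 stromal markers (diamonds), 1 library a side and without error bars. In SAT on chow *F3* moved from 1.73 to -0.03 under the stromal scaling, while in SAT on HFD the 3 scalings lay close together.

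Other genes of the same systems gave a wider view. Of 24 coagulation and anticoagulation genes tested, 10 were called higher (background 3.31%) and 1 lower (background 1.74%) in VAT than in SAT on chow. The higher ones included *F13a1*, the clot-crosslinking factor XIII subunit (log2 difference 4.72, edgeR adjusted p = 0.00436), *Gas6*, a ligand of the TAM receptors (2.97, adjusted p = 0.0142), and *Thbd*, thrombomodulin, which works with *Procr* (2.79, adjusted p = 0.0214), and the lower one was the receptor gene *F2rl1* (-2.52, adjusted p = 0.0257). The list's median was 1.79, against -0.08 over all genes. For the counts with a library left out, here and in the lists below, the share over all genes was not counted. The macrophage, adipocyte and endothelial markers given above were all higher in VAT as well, and their part was not tested. With a library left out, 1 to 11 genes of the list were called higher in VAT, 1 without the VAT library labelled KO, 2 without that labelled WT and 10 without SAT chow WT. *F13a1* passed in each case (adjusted p up to 0.0307), whereas *Gas6*, *Thbd* and *F2rl1* did not in at least 1 (up to 0.0817, 0.108 and 0.209). In muscle against SAT, 4 of the 24 were called higher (background 1.11%) and 0 lower (background 0.147%). They were led by factor X (*F10*, 2.72, adjusted p = 0.0353) and *Mmrn2*, also one of the 19 endothelial markers (2.21, adjusted p = 0.0246). In muscle against VAT 3 were called lower (background 1.05%) and 0 higher (background 0.884%), led by *F13a1* (-2.71) and *Gas6* (-2.34). These counts ran from 0 to 7 and from 0 to 6 with a library left out. Among 12 fibrinolysis genes 2 were called higher in VAT than in SAT (background 3.31%), *Mrc1*, the macrophage mannose receptor and one of the 10 macrophage markers (4.75, adjusted p = 0.00498), and *Plau*, urokinase (2.97, adjusted p = 0.0148), unlike *Plat*, the other plasminogen activator (0.57, adjusted p = 0.554). Both were called lower in muscle than in VAT (background 1.05%), at -6.38 and -2.8 (adjusted p = 0.00498 and 0.0275). With a library left out, *Mrc1* passed in both contrasts each time (up to 0.0389 and 0.0336) and *Plau* did not (up to 0.0846 and 0.25). For KO over WT in SAT on chow, *Thbd* (log2 ratio 1.65) and *Plau* (1.25) were among the 6 of 25 coagulation and 5 of 12 fibrinolysis genes, respectively, beyond 2-fold higher in KO, beside the 19% of all genes given above, ratios that rest on the SAT chow WT library.

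Of the 24 genes of nitric oxide, prostanoid and peptide regulators of tone, 4 were called higher in VAT than in SAT on chow (background 3.31%) and 0 lower (background 1.74%), led by *Tbxas1*, thromboxane synthase (3.7, edgeR adjusted p = 0.0109), and *Ptgir*, the prostacyclin receptor (3.37, adjusted p = 0.0148). Left-out libraries gave 0 to 9 genes higher, with adjusted p up to 0.0742 for *Tbxas1* and 0.123 for *Ptgir*. *Nos3*, endothelial nitric oxide synthase, was at 1.61 (adjusted p = 0.186), and in SAT it had -2.55 for HFD against chow (adjusted p = 0.482). *Tfpi*, the inhibitor of the tissue factor pathway, was at 1.41 in VAT against SAT (adjusted p = 0.19). Of 3 endothelin genes tested beside *Edn1*, *Ednrb* and *Ece1*, *Mme*, neprilysin, was called lower in VAT than in SAT (-4.4, adjusted p = 0.0499, and up to 0.305 with a library left out). In the renin-angiotensin and kinin list of 14 tested genes, 0 were called between VAT and SAT, and up to 5 with a library left out. In muscle against SAT the chymotrypsin-like protease genes *Ctsg*, of neutrophils, and *Mcpt4*, of mast cells, were called at 7.89 and -3.74 (adjusted p = 0.0289 and 0.0182, and up to 0.161 and 0.149 with a library left out), along with all 10 neutrophil markers higher in both muscle than in both SAT chow libraries. *Agtr1a*, the main angiotensin receptor, had its largest tissue difference between muscle and SAT (-2, adjusted p = 0.491). In HFD against chow and over the 4 KO pairs, edgeR called 0 genes of all 5 lists. With a library left out, HFD against chow had calls in these lists only without the SAT chow KO library. Chow in SAT then rested on the SAT chow WT library alone. Those calls were in both directions in the coagulation list and higher on HFD in the fibrinolysis list.

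The genes most like each of the 9 in pattern were ranked by Pearson's r of log2 CPM over the 8 libraries, a description over libraries that share tissue and sorting. *Edn1* was closest to the endothelial transcription factor gene *Sox18* (r = 0.988), to *Cav1* (0.986) and to *Enpp3* (0.986), and *Vwf* to *Fmo2* (0.983), *Ephb4* (0.974) and *Pgm5* (0.974). *Plat* was closest to *Adamts2* (0.978), *Ntrk2* (0.973) and *Pdgfra* (0.969), the last a marker of the stromal list, and *Procr* to *Serping1* (0.97), *Htra3* (0.955) and *Mmp23* (0.955). For *F3* the nearest were *Depdc5* (0.965), *Cdh11* (0.944) and *Vamp2* (0.94). *Ednrb* had *Myof* (0.995) among its 3 closest genes, with VAT carrying most of the range. *Ace* was nearest to *Rasa4* (0.983), *Sec14l1* (0.978) and *Mctp1* (0.975), and *Ece1* to *Xpot* (0.98), *Atp2c1* (0.979) and *Skap2* (0.975). *Agt*, at few counts, was nearest to *Col6a4* (0.944).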

How the data were processed

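mG+ cells were sorted from SAT, VAT and muscle and RNAseq was performed, 1 library per tissue, diet and genotype (8 in all). The deposited values are read counts per gene, which the authors made with HISAT2 2.0.5 on GRCm38/mm10 per the submitters' processing notes. The counting tool and strand setting are not given in the sources used here, so reads of *Edn1*, *Ece1* and *Ace* and of genes overlapping them on the opposite strand (14, 626 and 9 counts in total) could not be told apart.

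Here, 16971 genes averaging 10 counts or more were kept, CPM were scaled by TMM (factors 0.877 to 1.14), and log2 differences were tested with edgeR 4.0.16 (R 4.3.3), quasi-likelihood, with tissue and diet as a block and Benjamini-Hochberg adjustment (threshold 0.05). DESeq2 1.42.0 was an alternative. Within pairs, ratios used a prior count of 0.5 and genes averaging 10 counts or more over its libraries, with exact Clopper-Pearson 95% intervals. Self-tests on simulated counts were run. The genes, gene lists and marker lists were chosen with earlier results of these data known. Named besides the 9 genes were up to 2 genes each way per list with the largest called change, 8 fixed genes, and the 3 genes most alike in pattern, of which some are not reported here. Scaling to stromal markers was chosen after seeing the data.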

Additional observations from a re-analysis of the deposited data

Results flagged for a closer look

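For 4 of the 9 genes the counting intervals of KO over WT lay above 0 in one pair and below 0 in another. *Vwf* had log2 ratios of -1.35 in VAT and 0.58 in muscle, *Edn1* of -1.93 in SAT on HFD and 0.52 in muscle, *Ace* of -0.93 in VAT and 0.21 in muscle, and *Ece1* of -0.62 in VAT and 0.1 in SAT on chow. The differences between pairs were not tested, since each pair has 1 library per genotype and the intervals cover counting error only. In VAT the few *Tert* counts did not bear out the labels. Endothelial markers were below 0 for 13 of 19 genes in VAT and above 0 for 17 of 19 in muscle.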

How the results depend on the processing

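Besides DESeq2, the alternatives were median-of-ratios, library-total and upper-quartile scaling, no filter or a mean of at least 50 counts, a prior count of 5, no block or no genotype term, each pair or library left out, and scaling to marker sums. Counts of genes called stayed at 0 for KO over the 4 pairs and for HFD against chow in every alternative run, and at 1 for muscle against VAT. For VAT against SAT the count of 3 became 5 with DESeq2 and 1 to 4 with a library left out. For muscle against SAT the count of 0 became 3 with no filter, 1 with a mean of at least 50 counts, 1 with no genotype term, 3 with DESeq2 and 0 to 1 with a library left out. Within pairs, genes beyond 2-fold went from 3 to 1 in SAT on chow when scaled to endothelial markers and to 5 when scaled to stromal markers (*Vwf*, *Ace*, *Ece1*, *Edn1* and *Agt*, all lower and none of them among the 3), from 2 to 5 in VAT under the stromal scaling (the same 5 genes, with *Agt* higher), and from 0 to 1 in muscle with library totals. Except for DESeq2 in the contrasts given above, the share of all genes called or beyond 2-fold was not counted under these alternatives. Scaling to the stromal sum lowers the ratio of every gene by that sum's own log2 ratio, 1.76 in SAT on chow and 0.91 in VAT. The causes were not tested. Signs turned for values that were not called and for 2 ratios beyond 2-fold. *F3* in HFD against chow (main -0.12) was at 0.02 by median-of-ratios, 0.07 with library totals, 0.04 by upper quartile and 0.02 in DESeq2, and *F3* in VAT against SAT (0.02) was at -0.04 by upper quartile and -0.18 without the genotype term. *Vwf* in muscle against VAT (0.1) was at -0.05 without the genotype term. Scaled to stromal markers in SAT on chow, *F3* (1.73) was at -0.03 and *Ednrb* (1.33) at -0.43. With a library left out, ranges that crossed 0 were, in HFD against chow, -0.24 to 1.05 for *Plat* and -0.58 to 0.51 for *F3*, in VAT against SAT, -0.45 to 0.65 for *F3* and -1.14 to 3.38 for *Agt*, in muscle against SAT, -0.37 to 0.87 for *Ednrb*, -0.28 to 0.01 for *Procr*, -1.13 to 0.15 for *Plat* and -0.9 to 0.2 for *F3*, and in muscle against VAT, -0.43 to 0.1 for *Ece1*, -0.68 to 0.76 for *Vwf* and -0.17 to 1.19 for *Edn1*. No paired analysis was possible beyond the block of tissue and diet because the labels carry no replicate numbers. Depth limits *Agt* and, in SAT on HFD, *Edn1*.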
